A study of Mus musculus with 18 samples.

Results

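Resiquimod given before an inhaled allergen was compared with the allergen alone in the lungs of A/J mice, a strain whose airways react strongly to allergens. The comparison takes 6 of the 18 arrays of the series, chosen by strain and treatment as labelled: 3 lungs of mice treated with resiquimod and challenged with ovalbumin (resiquimod lungs below) and 3 of mice challenged with ovalbumin only (ovalbumin lungs). All were male A/J mice aged 16 weeks, each whole lung was read on 1 Affymetrix array of 45037 probe sets once controls are left out, and the samples are labelled as biological replicates. Every mouse, in all groups, had been sensitized by 3 weekly intraperitoneal injections of 100 µg ovalbumin, an egg protein, in alum. Challenge began 7 days after the last injection and consisted of a 1% ovalbumin aerosol for 30 min on each of 3 days. Resiquimod lungs came from mice that also had 3 daily intraperitoneal injections of 100 µg resiquimod, the first 24 h before the first challenge. For scale, values of 3 A/J lungs from sensitized mice that inhaled PBS are given beside them. C57BL/6 mice, 3 in each of the same treatment groups, serve as a second strain. No group had resiquimod without ovalbumin, and the descriptions used here list no vehicle injection, so what resiquimod or the injections do by themselves, and what resiquimod does to the reaction to the allergen, cannot be told apart.

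Resiquimod is a small molecule that activates Toll-like receptor 7 (Tlr7), an endosomal sensor of single-stranded RNA that signals through Myd88 to interferon regulatory factors and NF-kappaB in plasmacytoid dendritic cells, macrophages and B cells. In a sensitized lung, inhaled allergen raises type 2 cytokines such as Il4 and Il13. These act on macrophages, airway epithelium and endothelium and bring about alternative macrophage activation, mucus secretion and recruitment of eosinophils. Type 1 responses, led by the transcription factor Tbx21, natural killer (NK) cells and interferon gamma, are known to oppose type 2 responses.

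Some of the lungs carried transcripts of other tissues, and this has to be known before the results are read. Arrays were marked where the mean log2 value of a tissue's markers lay more than 1 above the median of the 18 arrays, or where at least 3 markers lay more than 2 above their own medians. The liver markers averaged 4.06, 3.95 and 8.88 in resiquimod lungs 1, 2 and 3, against 7.13, 4.19 and 4.00 in ovalbumin lungs 1, 2 and 3, so that 1 array of each group was marked. Stomach markers averaged 7.45, 4.52 and 4.62 in resiquimod lungs, against 4.83, 4.76 and 4.79 in ovalbumin lungs, and the high array held the gastrokines Gkn1 at 8.65 and Gkn2 at 10.69. Squamous epithelium transcripts marked resiquimod lung 1 and ovalbumin lungs 1 and 3, as they did 8 of the 18 arrays, and skeletal muscle transcripts marked the same 3 of these 6 arrays and 9 of the 18. Only resiquimod lung 2 and ovalbumin lung 2 carried none of the 4. Their difference is given below as the array 2 difference, a value from single lungs with no test. Fits without liver or stomach arrays keep 1 resiquimod and 2 ovalbumin lungs of A/J. Those without squamous arrays keep 2 and 1, and those without all marked arrays 1 and 1, so such counts rest on single lungs. None of the 4 tissue means passed a test between the groups (exact permutation p between 0.5 and 1, where 3 against 3 arrays cannot go below 0.1). The defining lung epithelial markers were high in every array, with means between 12.17 and 12.29 in resiquimod lungs and between 12.12 and 12.26 in ovalbumin lungs. Array medians of all 18 arrays lay between 4.77 and 4.80. The difference between 3' and 5' beta-actin probe sets, a sign of RNA integrity, averaged 0.483 in resiquimod lungs and 0.380 in ovalbumin lungs (log2, exact permutation p = 0.1, the smallest possible), and the groups did not overlap. The same difference for Gapdh averaged 0.021 in resiquimod lungs and 0.049 in ovalbumin lungs (exact permutation p = 0.7), with overlap.

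**Figure D1:**
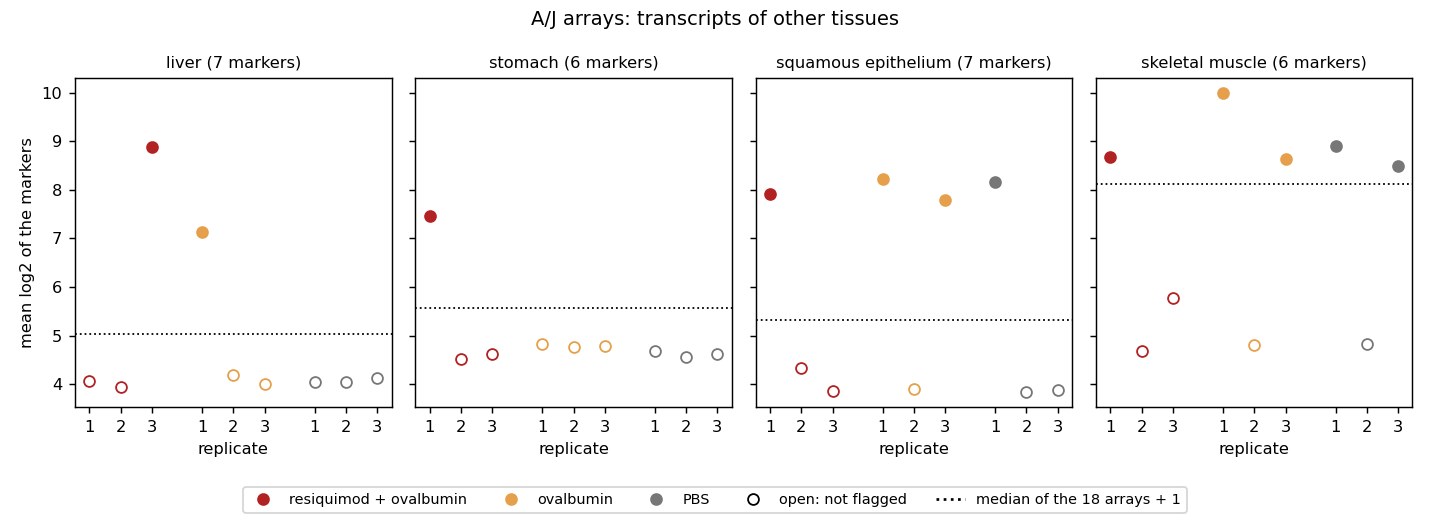
Mean log2 value of the markers of liver, stomach, squamous epithelium and skeletal muscle on each A/J array, resiquimod with ovalbumin first, then ovalbumin, then PBS; filled points are marked arrays and the dotted line lies 1 above the median of the 18 arrays. Resiquimod array 3 and ovalbumin array 1 stand out for liver at 8.88 and 7.13, and resiquimod array 1 for stomach at 7.45.

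Each value is a log2 expression value, and changes are log2 differences, resiquimod lungs minus ovalbumin lungs, with the standard error (SE) of limma's fit of 6 group means over the 18 arrays. A gene is read from its brightest probe set and is called where the Benjamini-Hochberg adjusted p over all 45037 probe sets is under 0.05. Of 18193 genes, 796 were called higher (4.38%) and 981 lower (5.39%), 1777 in all (9.77%), and 103 and 113 of them changed at least 2-fold. In probe sets the counts were 1519 higher (3.37%) and 1687 lower (3.75%). Without ovalbumin lung 1, the array that carried liver, squamous and muscle transcripts, 976 probe sets were called higher and 1327 lower. With the 6 arrays alone, which leaves only their own spread, the counts were 400 and 692. The median change of all genes was -0.0026, and the 3 arrays of each group did not overlap for 2198 genes on the higher side (12.1%) and 2486 on the lower side (13.7%). Values near 3.33, the 25th percentile of all values, are among the weakest signals, so a change that starts or ends there is understated. In whole lung, more or fewer cells of a type and more or less RNA per cell cannot be told apart. The number of arrays limits the precision, and p-values measure the spread between these samples.

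**Figure D2:**
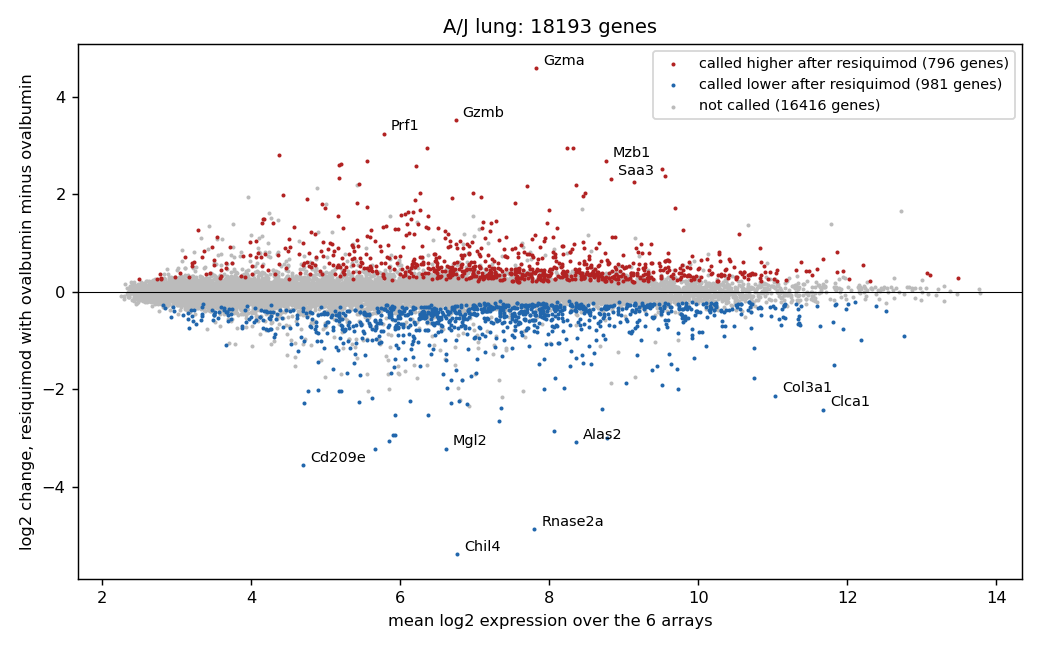
Log2 change of 18193 genes (resiquimod with ovalbumin minus ovalbumin, A/J, vertical axis) against their mean log2 expression over the 6 arrays (horizontal axis); red and blue genes are called higher (796) and lower (981), grey genes are not called. Gzma at 4.59 and Chil4 at -5.39 lie at the ends.

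Genes of NK cells and cytotoxic granules rose most. Gzma, a granule protease of killer cells, read 10.19, 10.22 and 9.92 in resiquimod lungs, against 5.74, 5.38 and 5.45 in ovalbumin lungs, a 24.1-fold difference (log2 4.59 ± 0.13, adjusted p = 4.31e-12). Gzmb, the granule protease that starts death of target cells, read 8.55, 8.71 and 8.24 in resiquimod lungs, against 5.07, 5.11 and 4.76 in ovalbumin lungs (11.5-fold). Prf1, the pore-forming protein through which granzymes enter a target, read 7.42, 7.67 and 7.11 in resiquimod lungs, against 4.53, 4.12 and 3.83 in ovalbumin lungs (9.44-fold). For all 3 the lowest resiquimod lung lay more than 2 log2 units above the highest ovalbumin lung. Array 2 differences, between single lungs, were 4.85, 3.60 and 3.55 for Gzma, Gzmb and Prf1, and the part of other tissue was not tested. Prf1 has 2 probe sets on the array, and 1 of them was called.

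The receptors and chemokines of the same cells rose with them. Of 24 measured members of the NK and cytotoxic granule list, 15 rose and 0 fell, against 4.38% and 5.39% of all genes, and the median member changed by 1.17. Lists and members, here and below, were chosen with earlier results of these data known, so list counts describe the lists and test nothing. Ncr1, the activating receptor NKp46 that marks NK cells, read 6.79, 6.40 and 6.24 in resiquimod lungs, against 3.77, 3.91 and 3.96 in ovalbumin lungs (log2 change 2.60 ± 0.14). Klrd1, the CD94 chain of NK receptors, rose by 2.68, Nkg7, a granule membrane protein, by 2.95, and Ccl5, a chemokine stored by cytotoxic lymphocytes, by 2.95. Each of these 4 genes had 3 resiquimod lungs above all ovalbumin lungs, which the rule that named the 20 largest rises required. When single arrays were left out, between 13 and 16 of the 24 were called higher. Of 20 T cell members 1 rose and 2 fell. The antigen receptor chain Cd3e read 5.96, 6.14 and 5.94 in resiquimod lungs, against 6.38, 6.32 and 6.25 in ovalbumin lungs (log2 change -0.30 ± 0.08, adjusted p = 0.0379, lost without any of resiquimod lungs 1 and 3 or ovalbumin lungs 1 to 3). The member that rose was Txk, a kinase of T and NK cells, by 1.06 ± 0.12. Cd8b1, the beta chain of the CD8 coreceptor, was not called (-0.43 ± 0.15, adjusted p = 0.101).

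At the other end, products of alternatively activated macrophages and allergic lung fell most. Chil4, a chitinase-like secreted protein of allergic mouse lung, read 4.28, 3.76 and 4.18 in resiquimod lungs, against 9.45, 9.38 and 9.55 in ovalbumin lungs, 41.8-fold lower (log2 -5.39 ± 0.40, adjusted p = 3.32e-07). Rnase2a, a ribonuclease of the eosinophil-associated family, read 5.99, 4.62 and 5.46 in resiquimod lungs, against 10.39, 9.99 and 10.31 in ovalbumin lungs (29.3-fold lower). Cd209e, a C-type lectin of the DC-SIGN family, read 2.99, 2.82 and 2.94 in resiquimod lungs, against 6.44, 6.28 and 6.70 in ovalbumin lungs (11.8-fold lower). No array of one group reached the range of the other, and array 2 differences were -5.62, -5.38 and -3.46. The resiquimod values of Cd209e lie below the 25th percentile, so its fold is understated.

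Of 22 members of the alternatively activated macrophage list, 16 fell and 0 rose, with a median of -1.53. The galactose-binding lectin Mgl2 read 5.28, 4.91 and 4.82 in resiquimod lungs, against 8.28, 8.16 and 8.22 in ovalbumin lungs (log2 -3.22 ± 0.15). Cd209a, a DC-SIGN family lectin of dendritic cells, fell by 3.05 on the log2 scale, and the macrophage elastase Mmp12 fell by 2.28. Abundant members fell less: Retnla, a resistin-like secreted protein, read 12.37, 12.21 and 12.37 in resiquimod lungs, against 13.21, 13.21 and 13.21 in ovalbumin lungs (1.86-fold lower). Chil3, the abundant relative of Chil4, read 11.55, 11.52 and 11.62 in resiquimod lungs, against 12.28, 12.29 and 12.42 in ovalbumin lungs (1.70-fold lower). The number called lay between 12 and 17 when arrays with other tissues were left out in any of 3 ways, and at 14 with the 6 arrays alone.

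The promoters of these 6 genes, the 3 largest rises and the 3 largest falls, are shown so that the letters next to the changed genes can be read. Each is 300 bases from RefSeq on GRCm38.p6, 250 before the annotated start and 50 after it, in the gene's own direction. Capitals mark matches on either strand to 4 motifs: TTCNNNNGAA, the form of site favoured by Stat6, which carries Il4 and Il13 signals; TTCNNNGAA, the gamma-activated form; GAAA repeated after any 2 bases, a core of interferon-stimulated response elements; and TGTGGT, the core that Runx factors of cytotoxic lymphocytes bind. Chil4 lies at chr3:106219430-106219729, Rnase2a at chr14:51256063-51256362, Cd209e at chr8:3854237-3854536, Gzma at chr13:113100932-113101231 and Gzmb at chr14:56262285-56262584, all on the minus strand, and Prf1 at chr10:61297586-61297885 on the plus strand.
Gzma: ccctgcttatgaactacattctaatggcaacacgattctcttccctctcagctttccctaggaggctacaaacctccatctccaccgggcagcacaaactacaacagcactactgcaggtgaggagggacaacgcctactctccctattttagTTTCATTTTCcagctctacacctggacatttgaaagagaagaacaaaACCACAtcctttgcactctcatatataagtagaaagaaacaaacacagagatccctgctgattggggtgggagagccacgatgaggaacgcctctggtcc
Gzmb: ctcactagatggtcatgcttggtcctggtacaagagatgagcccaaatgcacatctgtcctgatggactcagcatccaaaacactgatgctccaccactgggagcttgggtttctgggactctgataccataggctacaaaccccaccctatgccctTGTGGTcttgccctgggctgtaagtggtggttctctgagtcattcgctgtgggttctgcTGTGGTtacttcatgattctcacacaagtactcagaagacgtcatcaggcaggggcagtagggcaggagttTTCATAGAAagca
Prf1: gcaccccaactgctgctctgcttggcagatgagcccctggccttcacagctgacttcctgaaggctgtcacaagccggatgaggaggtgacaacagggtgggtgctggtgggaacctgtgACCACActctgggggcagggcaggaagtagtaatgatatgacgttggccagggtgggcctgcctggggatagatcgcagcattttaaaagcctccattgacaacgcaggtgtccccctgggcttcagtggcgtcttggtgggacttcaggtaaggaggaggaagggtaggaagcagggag
Chil4: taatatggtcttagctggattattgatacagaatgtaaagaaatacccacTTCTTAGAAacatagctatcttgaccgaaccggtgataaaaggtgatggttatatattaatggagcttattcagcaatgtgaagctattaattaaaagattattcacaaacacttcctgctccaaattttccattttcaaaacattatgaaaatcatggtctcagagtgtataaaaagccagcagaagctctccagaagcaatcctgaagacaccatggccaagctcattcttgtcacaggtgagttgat
Rnase2a: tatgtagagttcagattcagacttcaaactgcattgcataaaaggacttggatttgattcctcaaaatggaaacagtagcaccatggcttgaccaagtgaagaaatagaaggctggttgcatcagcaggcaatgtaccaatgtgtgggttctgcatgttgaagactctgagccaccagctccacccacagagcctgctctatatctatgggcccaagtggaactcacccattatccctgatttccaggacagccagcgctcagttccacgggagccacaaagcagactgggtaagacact
Cd209e: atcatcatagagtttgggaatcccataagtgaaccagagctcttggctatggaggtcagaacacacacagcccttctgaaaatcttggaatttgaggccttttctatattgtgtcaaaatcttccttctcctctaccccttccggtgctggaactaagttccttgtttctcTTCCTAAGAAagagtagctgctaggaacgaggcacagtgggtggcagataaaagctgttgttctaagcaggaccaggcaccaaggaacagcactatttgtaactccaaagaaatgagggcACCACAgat
The Runx core stood in all 3 promoters of genes that rose, with 2 matches in Gzmb, and near the end of the Cd209e window. TTCNNNNGAA was found in Cd209e only, TTCNNNGAA in Chil4 and Gzmb, the repeated GAAA in Gzma, and none of the 4 in Rnase2a. No marked match overlaps another. Over 27025 promoters of the same length the Runx core is in 16.9%, TTCNNNGAA in 8.47%, TTCNNNNGAA in 6.99% and the repeated GAAA in 3.49%. Of the 20 largest rises 14 had a promoter, and 8 of these (57.1%) held the Runx core. Among genes called at least 2-fold higher it was 32.1% of 81, among all genes called higher 16.1% of 629, and among those called at least 2-fold lower 12.2% of 82. The repeated GAAA and TTCNNNGAA were each in 3 of the 14 promoters of the largest rises (21.4%), and TTCNNNNGAA in 0. Of the 20 largest falls 14 had a promoter. TTCNNNNGAA was in 3 of these (21.4%), TTCNNNGAA and the Runx core in 2 each (14.3%) and the repeated GAAA in 1 (7.14%). A match describes the letters and is neither a site nor a cause.

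**Figure D3:**
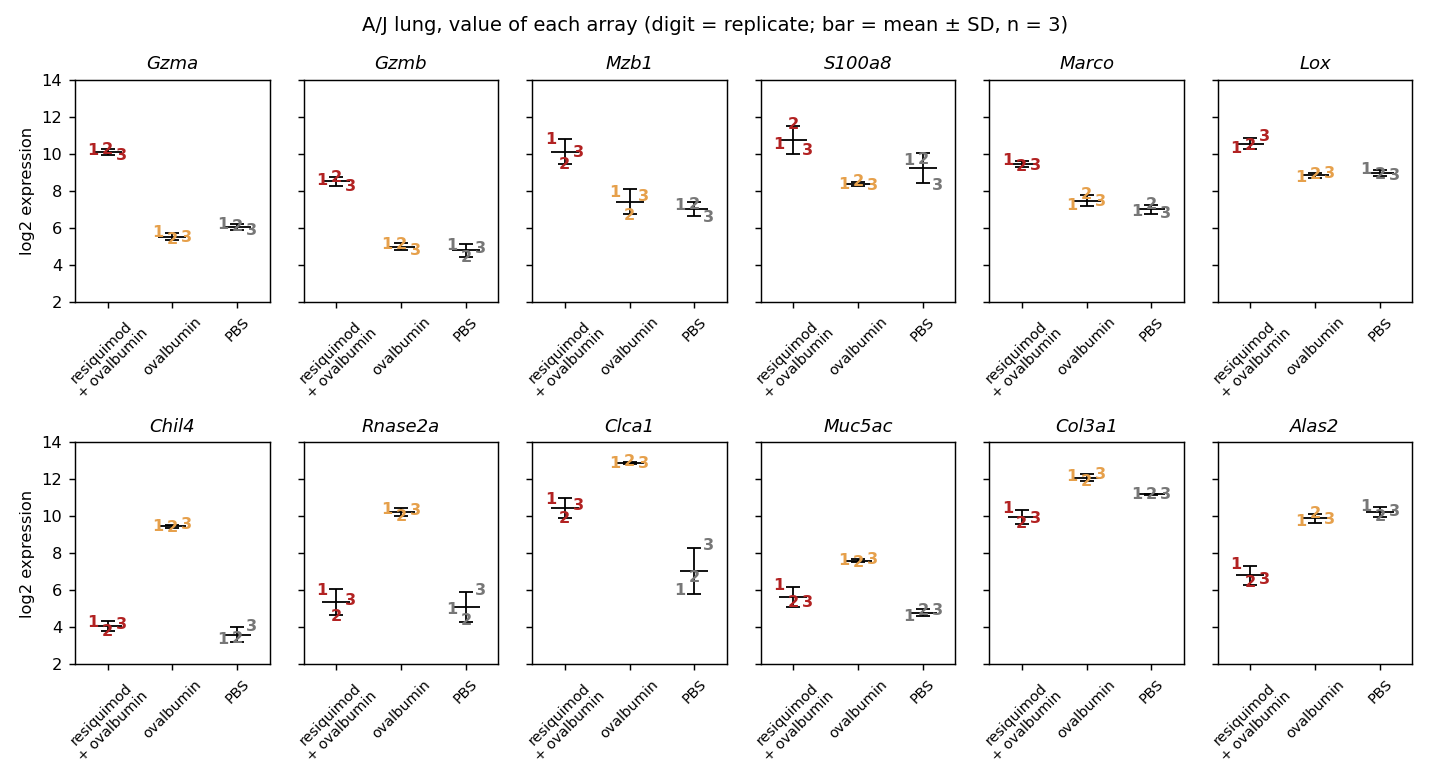
Log2 expression of 12 genes on each A/J array (digits are replicate numbers) with the mean ± SD of 3 arrays, resiquimod with ovalbumin first, then ovalbumin, then PBS. Gzma, Gzmb, Mzb1, S100a8, Marco and Lox are higher in resiquimod lungs than in ovalbumin lungs, the other 6 lower, and Clca1 and Muc5ac still lie above their PBS values.

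The receptor of resiquimod and some of its signalling partners rose by less. Tlr7 read 5.76, 5.72 and 5.59 in resiquimod lungs, against 5.03, 5.07 and 4.95 in ovalbumin lungs (log2 0.67 ± 0.10, adjusted p = 5.92e-04), but only 1 of its 3 probe sets was called and the median of the 3 changed by 0.16 (adjusted p = 0.448). Of 17 members of this list 5 rose and 0 fell. The interferon regulatory factor Irf7 read 7.27, 7.27 and 7.16 in resiquimod lungs, against 6.28, 5.94 and 5.90 in ovalbumin lungs (2.29-fold). Irak3, an inhibitor of the pathway, rose by 0.97 and Nfkbiz, an inducible NF-kappaB partner, by 0.89, both highest in resiquimod lung 2. Among 12 other Toll-like receptors and partners 2 rose: Tlr13, a sensor of bacterial ribosomal RNA, by 1.30 ± 0.12, and the coreceptor Cd14 by 0.63 ± 0.12.

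Few interferon-stimulated genes passed the test. Of 30 type I interferon-stimulated genes 2 rose and 2 fell, not far from the 4.38% and 5.39% of all genes, with a median of -0.04. In limma's test 10 of the 30 had an unadjusted p under 0.05, 5 higher and 5 lower. The antiviral enzyme Rsad2 read 6.34, 6.22 and 6.02 in resiquimod lungs, against 7.84, 7.98 and 7.73 in ovalbumin lungs (3.16-fold lower, adjusted p = 2.31e-05), and 2 of its 3 probe sets were called. Ifi27, a mitochondrial interferon-induced protein, fell by 0.38, while Ifit3 and the ubiquitin ligase Trim30a rose by 0.37 and 0.33; the calls of Ifi27, Ifit3 and Trim30a were each lost without ovalbumin lung 1 (adjusted p = 0.0707, 0.0554 and 0.141), those of Ifi27 and Trim30a also without ovalbumin lung 3, that of Ifi27 without resiquimod lung 3 (adjusted p = 0.105) and that of Trim30a without resiquimod lung 2 (adjusted p = 0.154). Of 17 genes induced by interferon gamma 1 rose and 2 fell, and 7 had an unadjusted p under 0.05 in limma's test, 5 higher and 2 lower. Cxcl10, a chemokine for Cxcr3-bearing lymphocytes, read 6.06, 6.15 and 5.37 in resiquimod lungs, against 6.72, 7.27 and 7.10 in ovalbumin lungs (log2 -1.17 ± 0.27, adjusted p = 0.0133), a call lost without resiquimod lung 3 (-0.93, adjusted p = 0.0689) or ovalbumin lung 2 (-1.05, adjusted p = 0.0567). Socs1, an inhibitor of cytokine signalling, fell by 0.71, and the tryptophan-degrading enzyme Ido1 rose by 0.49.

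None of the 17 pro-inflammatory cytokines measured passed limma's test, and 2 of them had an unadjusted p under 0.05. Leaving out arrays with liver or stomach transcripts, or all marked arrays, keeps only resiquimod lung 2. Members of this list were then called higher and none lower, but those calls rest on that single lung and are not counted here. When single arrays were left out, 1 of these cytokines was called lower without resiquimod lung 1 or 2 or ovalbumin lung 3. Tnf read 5.45, 6.54 and 5.17 in resiquimod lungs, against 5.33, 5.39 and 5.19 in ovalbumin lungs (adjusted p = 0.383). Ifng read 3.14, 4.18 and 3.08 in resiquimod lungs, against 2.92, 2.88 and 3.12 in ovalbumin lungs (adjusted p = 0.360). In both, resiquimod lung 2 stood above the other 5 and the groups overlapped. Il6 read 3.12, 3.87 and 2.70 in resiquimod lungs, against 4.05, 4.13 and 3.61 in ovalbumin lungs (log2 -0.70 ± 0.21, adjusted p = 0.0593), and without resiquimod lung 2 it was called lower (-1.02, adjusted p = 0.00136), as it was without ovalbumin lung 3 (-0.86, adjusted p = 0.0401). The inhibitory cytokine Il10 (adjusted p = 0.258) and Il12b, the shared chain of Il12 and Il23 (adjusted p = 0.960), lay near the 25th percentile in all 6 arrays.

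Genes of type 1 differentiation rose, although Ifng itself did not pass the test. Of 13 members 6 rose and 0 fell. Tbx21, the T-bet factor of type 1 lymphocytes and NK cells, read 5.55, 5.66 and 5.05 in resiquimod lungs, against 3.54, 3.14 and 3.60 in ovalbumin lungs (3.99-fold, adjusted p = 9.61e-07). Cxcr3, the receptor for Cxcl10, rose by 0.93, Eomes, the T-bet relative, by 0.90, and Il18rap, a chain of the Il18 receptor, by 0.84. Every resiquimod lung was above every ovalbumin lung for these 4 genes. Of 8 Gimap GTPases, which serve lymphocyte survival, 4 rose, led by Gimap7 at 1.74 ± 0.24, and 2 were called without resiquimod lung 2 or without ovalbumin lung 2. Among 17 regulatory and checkpoint genes Ebi3, a subunit of Il27 and Il35, rose by 1.16, while Tnfrsf9, the costimulatory receptor 4-1BB, fell by 0.85, Pdcd1lg2, the PD-1 ligand PD-L2, by 0.54 and Nt5e, the adenosine-forming enzyme CD73, by 0.39. The call of Pdcd1lg2 was lost without ovalbumin lung 1 or 3 or resiquimod lung 3 (adjusted p = 0.0709, 0.0672 and 0.0669).

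A few genes of antibody-secreting cells rose, and most members of their list were not called. Mzb1, a chaperone of immunoglobulin assembly, read 10.78, 9.44 and 10.07 in resiquimod lungs, against 7.90, 6.66 and 7.67 in ovalbumin lungs (6.45-fold, adjusted p = 4.67e-04). The kappa variable gene Igkv6-20 read 8.25, 4.83 and 6.48 in resiquimod lungs, against 3.88, 3.00 and 4.78 in ovalbumin lungs. The lambda variable gene Iglv1 read 11.70, 9.66 and 10.95 in resiquimod lungs, against 8.54, 7.19 and 9.02 in ovalbumin lungs. Within each group lung 2 was lowest for all 3 genes. Igkv6-20 (2.63 ± 0.74, adjusted p = 0.0400) lost its call without ovalbumin lung 1 or 2 or resiquimod lung 1 or 3 (changes between 1.77 and 2.65). Iglv1 (2.52 ± 0.61, adjusted p = 0.0180) lost its call without ovalbumin lung 2 or resiquimod lung 1 or 3 (1.99, 2.05 and 2.43). Immunoglobulin variable genes share sequence, so their probe sets may read several of them. Eaf2, a transcription elongation factor active in plasma cells, rose by 2.21 ± 0.36. Of 13 plasma cell genes 2 rose, Mzb1 and the receptor Tnfrsf13b (1.05 ± 0.24), whose call was lost without resiquimod lung 1 or 2 (adjusted p = 0.0542 and 0.0530). Of 17 B cell genes 3 rose and 1 fell. Cd72, an inhibitory B cell receptor, rose by 1.64 ± 0.26 and the adaptor Blnk by 0.82 ± 0.18, and Pou2af1, a coactivator of B and plasma cells, by 1.46 ± 0.39, a call lost without ovalbumin lung 2 or resiquimod lung 1 or 3. Fcer2a, the low-affinity IgE receptor CD23, averaged 5.38 ± 0.10 in resiquimod lungs and 6.75 ± 0.22 in ovalbumin lungs (SD, n = 3 each), 2.59-fold lower with no overlap. The number of B cell genes called higher was 0 with the 6 arrays alone. It was 2 without ovalbumin lung 2 or resiquimod lung 1, and 5 without ovalbumin lung 1 or resiquimod lung 3. B cell markers averaged 8.42, 8.16 and 7.51 in resiquimod lungs, against 8.02, 6.46 and 7.45 in ovalbumin lungs.

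Monocyte and phagocyte genes rose while the inhibitory Fc receptor fell. Of 28 members 15 rose and 1 fell, with a median of 0.52. Fcgr4, an activating IgG receptor of non-classical monocytes, read 7.49, 7.65 and 7.39 in resiquimod lungs, against 4.81, 4.91 and 5.03 in ovalbumin lungs (6.03-fold, adjusted p = 1.12e-08). The scavenger receptor Marco read 9.62, 9.31 and 9.38 in resiquimod lungs, against 7.18, 7.77 and 7.44 in ovalbumin lungs (3.93-fold). Treml4, a receptor of the same monocyte subset, rose by 1.82 ± 0.25. The single member that fell was Fcgr2b, the inhibitory IgG receptor, with 7.93, 7.65 and 7.47 in resiquimod lungs, against 9.02, 8.93 and 9.19 in ovalbumin lungs (2.57-fold lower), and 4 of its 5 probe sets were called. The number called higher was 8 without arrays that carried squamous transcripts and 7 with the 6 arrays alone.

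Of 19 neutrophil genes 10 rose and 1 fell. S100a8, a chain of calprotectin, read 10.51, 11.58 and 10.15 in resiquimod lungs, against 8.32, 8.48 and 8.28 in ovalbumin lungs and 9.64, 9.71 and 8.31 in PBS lungs (5.23-fold higher than ovalbumin, adjusted p = 7.26e-04). Mmp8, the neutrophil collagenase, read 5.59, 7.27 and 6.19 in resiquimod lungs, against 4.02, 4.00 and 4.02 in ovalbumin lungs (5.06-fold). S100a9, the partner of S100a8, rose by 2.26 ± 0.40, and Stfa2l1, a stefin of myeloid cells, by 2.80 ± 0.29. Resiquimod lung 2 was highest for these 4, though not for Lcn2 of the same list, given below, and for the 4 every resiquimod lung was above every ovalbumin lung. Hdc, which makes histamine in mast cells, basophils and neutrophils, fell by 0.45. The number called higher was 3 without arrays that carried squamous transcripts, where S100a8 had an adjusted p of 0.165.

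Complement and acute phase genes rose in part. Saa3, an acute phase serum amyloid made in lung, read 10.13, 9.90 and 9.92 in resiquimod lungs, against 7.95, 7.38 and 7.67 in ovalbumin lungs (4.99-fold, adjusted p = 4.83e-06). Lcn2, an iron-binding lipocalin, read 11.28, 11.03 and 11.12 in resiquimod lungs, against 9.78, 9.94 and 10.13 in ovalbumin lungs (2.29-fold). Of 14 acute phase genes 4 rose and none fell, and of 15 complement genes 6 rose and 1 fell. The anaphylatoxin receptor C5ar1 rose by 1.27 ± 0.16 and factor B, Cfb, by 0.71 ± 0.09, while Hc, which encodes C5, fell by 0.69. The number of complement genes called higher was 2 without ovalbumin lung 2 and 3 without resiquimod lung 1. Liver makes most of both groups of proteins, and the liver transcripts of resiquimod lung 3 and ovalbumin lung 1 stand beside these counts. For Saa3, Lcn2, C5ar1 and Cfb resiquimod lung 3 was not the highest resiquimod lung, and the part of liver tissue in the counts was not tested.

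Eosinophil-attracting signals fell. Ccl11 (eotaxin-1) read 6.72, 5.63 and 6.15 in resiquimod lungs, against 8.56, 8.40 and 8.68 in ovalbumin lungs (5.22-fold lower, adjusted p = 3.81e-06). Ccl24 (eotaxin-2) read 4.57, 4.47 and 4.36 in resiquimod lungs, against 7.05, 7.54 and 7.62 in ovalbumin lungs (7.64-fold lower). Ccl17, which draws Ccr4-bearing T cells, read 5.97, 5.63 and 5.64 in resiquimod lungs, against 7.49, 8.33 and 8.33 in ovalbumin lungs (4.94-fold lower). The groups were far apart for all 3, which were named by a rule that required no overlap. Ccl22, the second Ccr4 ligand, fell by 1.54. Of 27 chemokines 9 fell and 3 rose. Among those that rose was Cxcl13, the B cell chemokine, with 10.04, 9.32 and 9.14 in resiquimod lungs, against 8.05, 6.48 and 7.85 in ovalbumin lungs (adjusted p = 0.0150), a call lost without ovalbumin lung 2 (1.55) or resiquimod lung 1 (1.77). Of the chemokines, 1 was called higher without ovalbumin lung 1 and 5 without resiquimod lung 3.

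Eosinophil genes themselves were low on these arrays. Of 11 members 5 fell and 1 rose. Prg2, the major basic protein, read 3.19, 3.11 and 3.02 in resiquimod lungs, against 4.13, 4.19 and 4.28 in ovalbumin lungs (2.14-fold lower), and the resiquimod values are below the 25th percentile. Ccr3, the receptor for Ccl11 and Ccl24, fell by 0.54. Siglecf, carried by eosinophils and alveolar macrophages, read 6.34, 5.30 and 6.19 in resiquimod lungs, against 6.42, 6.80 and 6.94 in ovalbumin lungs, a call lost without resiquimod lung 2 (-0.46, adjusted p = 0.0761) or ovalbumin lung 2 or 3 (-0.74 and -0.67). Alox15, a lipoxygenase of eosinophils and alternatively activated macrophages, fell by 2.53, and Adgre4, a macrophage and eosinophil adhesion receptor, rose by 1.05 ± 0.31 (adjusted p = 0.0484), a call that ended when any of ovalbumin lungs 1 to 3 or resiquimod lungs 1 and 2 was left out. Of 13 mast cell and basophil genes only Hdc was called. Among 18 leukotriene and prostaglandin genes 3 rose and 3 fell. The falls were Alox15, the prostaglandin E synthase Ptges (-0.64, a call lost without ovalbumin lung 2 or resiquimod lung 1 or 3) and the prostaglandin receptor Ptger4 (-0.59).

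The type 2 cytokines were near the lower limit of the array in both groups, so little can be read from them. Il4 read 2.96, 2.84 and 3.10 in resiquimod lungs, against 3.26, 3.50 and 3.60 in ovalbumin lungs (log2 -0.49 ± 0.11, adjusted p = 0.0127), a call lost without resiquimod lung 2 (-0.42) or ovalbumin lung 3 (-0.41). Il5 (-0.23 ± 0.09, adjusted p = 0.141) and Il13 (-0.18 ± 0.11, adjusted p = 0.406) were not called, although for both the 3 resiquimod lungs lay below the 3 ovalbumin lungs. The alarmin Il33, which epithelium and stroma release to start type 2 responses, was well measured at 9.10, 8.88 and 8.75 in resiquimod lungs, against 10.14, 10.45 and 10.54 in ovalbumin lungs (2.77-fold lower, adjusted p = 5.55e-05). Of 20 members 3 fell and none rose.

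Many mucus genes fell, and 11 of the 24 measured were called higher in resiquimod lungs than in PBS lungs. Clca1, a secreted protein of goblet cells, read 10.91, 9.89 and 10.61 in resiquimod lungs, against 12.87, 12.95 and 12.83 in ovalbumin lungs and 5.97, 6.72 and 8.43 in PBS lungs (5.33-fold lower than ovalbumin, adjusted p = 0.00454). Muc5ac, the gel-forming mucin of goblet cells, read 6.27, 5.34 and 5.32 in resiquimod lungs, against 7.64, 7.50 and 7.68 in ovalbumin lungs and 4.59, 4.93 and 4.89 in PBS lungs (3.90-fold lower than ovalbumin). Slc26a4, the anion exchanger pendrin, read 7.46, 7.22 and 7.15 in resiquimod lungs, against 10.22, 10.20 and 10.42 in ovalbumin lungs and 5.82, 6.12 and 5.70 in PBS lungs (8.03-fold lower than ovalbumin). For all 3 genes the 3 groups were fully separate. The IgG-Fc-binding mucin Fcgbp fell by 2.40 and the lectin intelectin, Itln1, by 2.85. Of 24 members 12 fell and 1 rose. Resiquimod lung 1, which carried stomach transcripts, was the highest resiquimod lung for Muc5ac and Clca1. Tff1, a stomach peptide on this list that goblet cells also make, read 11.60, 7.19 and 7.36 in resiquimod lungs. It read 8.73, 8.66 and 8.97 in ovalbumin lungs, and 7.17, 7.11 and 7.21 in PBS lungs. The part of stomach tissue in lung 1 was not tested, and array 2 differences were -2.17 for Muc5ac and -3.07 for Clca1. Of 8 chitinases and resistin-like genes 5 fell, among them the acidic chitinase Chia1 (-1.77 ± 0.22), which stomach also makes. Others of the 20 largest falls were the ferlin Fer1l6 (-3.23), the actin-severing protein Scin (-2.52) and the protease inhibitor Tfpi2 (-2.27).

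Dendritic cell and antigen presentation genes moved in both directions. Of 22 dendritic cell genes 13 fell and 1 rose, and the leading falls, Cd209a, Ccl17 and Ccl22, are given above. The member that rose was Ccl5. Of 14 class II presentation genes 7 fell and none rose. H2-Eb1, a class II beta chain, read 9.84, 9.54 and 9.25 in resiquimod lungs, against 10.30, 10.21 and 10.39 in ovalbumin lungs (log2 -0.76 ± 0.12, adjusted p = 5.92e-04), and the alpha chain H2-Aa fell by 0.68. H2-Ea and H2-Ab1 lost their calls without ovalbumin lung 3, where 3 class II genes were called, and without all arrays that carried another tissue 2 class II genes were called higher and none lower. Class I genes rose: of 15 class I and immunoproteasome genes 8 rose and 1, the chaperone Calr, fell. H2-K1, a classical class I chain, read 12.03, 12.11 and 11.90 in resiquimod lungs, against 11.24, 11.39 and 11.37 in ovalbumin lungs (log2 0.68 ± 0.07, adjusted p = 1.86e-05). H2-M3, which presents formylated bacterial peptides, rose by 0.78 and the immunoproteasome subunit Psmb8 by 0.65. The peptide transporter Tap1 rose by 0.64 ± 0.18 in its brightest probe set, but the median of its 4 probe sets did not (-0.04, adjusted p = 0.802). Its call was lost without ovalbumin lung 1 or 3 or resiquimod lung 1 or 2, and without resiquimod lung 2 the change was 0.39 (adjusted p = 0.177). Of 10 plasmacytoid dendritic cell genes, a cell type rich in Tlr7, 1 rose, the inhibitory receptor Lair1 by 0.78 ± 0.16.

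Collagens and matrix genes fell. Col3a1, a fibrillar collagen, read 10.40, 9.63 and 9.88 in resiquimod lungs, against 12.15, 11.87 and 12.28 in ovalbumin lungs and 11.20, 11.17 and 11.21 in PBS lungs (4.37-fold lower than ovalbumin, adjusted p = 1.64e-07). Col1a1 read 7.53, 7.02 and 7.10 in resiquimod lungs, against 9.40, 8.84 and 9.33 in ovalbumin lungs and 8.11, 8.35 and 8.41 in PBS lungs (3.93-fold lower than ovalbumin). In both genes the 3 groups were separate, with resiquimod lungs lowest. Of 22 members 17 fell and 1 rose, with a median of -0.93, and between 10 and 15 were called lower when arrays with other tissues were left out. The proteoglycan Lum fell by 1.72, with an adjusted p of 0.0464 that passed 0.05 when any of 4 of the 6 arrays was left out. Timp1, an inhibitor of matrix proteases, read 6.91, 6.95 and 6.92 in resiquimod lungs, against 8.82, 8.85 and 9.11 in ovalbumin lungs (4.00-fold lower). Lox, the enzyme that crosslinks collagen and elastin, went the other way with 10.31, 10.43 and 10.91 in resiquimod lungs, against 8.69, 8.87 and 8.95 in ovalbumin lungs and 9.13, 8.90 and 8.83 in PBS lungs (3.28-fold higher than ovalbumin, adjusted p = 2.31e-06), and 2 of its 3 probe sets were called. Of 21 crosslinking and protease genes 6 fell and 3 rose.

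Smooth muscle genes fell too. Of 15 members 11 fell and none rose. Actg2, a smooth muscle actin, read 7.91, 7.81 and 7.68 in resiquimod lungs, against 9.15, 9.00 and 9.10 in ovalbumin lungs and 7.91, 7.84 and 7.70 in PBS lungs (log2 -1.28 ± 0.13 against ovalbumin, adjusted p = 7.88e-06). Resiquimod and PBS lungs overlapped, and ovalbumin lungs stood above both. The actin-binding Tagln and the actin Acta2 fell by 0.71 each, Acta2 in 2 of its 3 probe sets. Of 15 genes of cardiac muscle, which sheathes pulmonary veins in mice, 4 fell and 1 rose, with Actc1 at -1.60 ± 0.17, Tnnc1 at -1.52 ± 0.22 and Myl7 at -1.14 ± 0.21. Skeletal muscle transcripts marked 1 resiquimod and 2 ovalbumin lungs. Their actin Acta1 read 11.61, 5.87 and 7.33 in resiquimod lungs, against 12.14, 6.62 and 11.31 in ovalbumin lungs, and array 2 differences were -1.19 for Actg2 and -1.36 for Actc1. Without arrays that carried another tissue 2 smooth muscle genes were called lower.

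Some vessel and airway genes were called in each direction, where 4.38% of all genes were called higher and 5.39% lower. Of 24 endothelial genes 5 rose and 4 fell. The adhesion molecules that recruit leukocytes fell, Selp (P-selectin) by 1.27 and Vcam1 by 0.70, while Lyve1, a lymphatic hyaluronan receptor, and the receptor Tie1 rose by 0.64 ± 0.16 and 0.56 ± 0.15. The calls of Lyve1 and Tie1 were each lost when resiquimod lung 2 or 3 was left out, that of Lyve1 also without ovalbumin lung 1 or 2, and that of Tie1 also without ovalbumin lung 3 (0.35, adjusted p = 0.115). In all, 1 to 3 endothelial genes were called higher without resiquimod lung 2 or 3 or ovalbumin lung 1 or 3. Of 19 alveolar genes 2 fell and none rose. These were Pdpn and Emp2 (-0.32 and -0.24, adjusted p = 0.0385 and 0.0419), and both calls ended without any of resiquimod lungs 1 to 3 or ovalbumin lungs 2 and 3. Of 13 club cell genes 2 rose and 3 fell. Cyp1a1, an enzyme induced through the aryl hydrocarbon receptor, read 4.08, 3.84 and 3.77 in resiquimod lungs, against 5.82, 5.98 and 5.89 in ovalbumin lungs. These groups were separate, but the fit over 18 arrays gave an adjusted p of 0.0292, and the call ended when any of the 6 arrays was left out (adjusted p between 0.0519 and 0.0836). The secretoglobin Scgb3a1 fell by 0.52 and the glutathione transferase Gsta3 rose by 0.65. Of 17 ciliated cell genes 1 rose and 1 fell, near the shares of all genes. These were Foxj1 at 0.46 ± 0.13 and Mlf1 at -0.55 ± 0.15. Both calls ended without ovalbumin lung 1 or 3 or resiquimod lung 2 or 3, that of Mlf1 also without resiquimod lung 1.

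Some red cell and lipid synthesis genes fell, with resiquimod lungs below both other groups for the 3 given first. Alas2, the enzyme that starts haem synthesis in red cell precursors, read 7.38, 6.44 and 6.61 in resiquimod lungs, against 9.72, 10.15 and 9.81 in ovalbumin lungs and 10.52, 9.98 and 10.29 in PBS lungs (8.47-fold lower than ovalbumin, adjusted p = 4.65e-07). The beta globin Hbb-b2 read 4.69, 4.31 and 4.30 in resiquimod lungs, against 7.11, 7.77 and 7.23 in ovalbumin lungs and 8.27, 7.51 and 7.80 in PBS lungs, and 1 of its 2 probe sets was called. Red cell genes are read from blood held in the lung. Of 9 red cell genes 4 fell, with the anion exchanger Slc4a1 at -1.19 ± 0.27, a call lost without ovalbumin lung 2 (-1.01, adjusted p = 0.0582). Of 15 lipogenesis genes 6 fell. Scd1, the desaturase that makes monounsaturated fatty acids, read 11.09, 11.04 and 11.11 in resiquimod lungs, against 12.73, 12.39 and 12.61 in ovalbumin lungs and 12.78, 12.47 and 12.82 in PBS lungs (2.83-fold lower than ovalbumin). Thrsp, a regulator of fat synthesis, fell by 2.64 with an SE of 0.70, and its call ended without ovalbumin lung 1 or 3 or resiquimod lung 1 or 2. Of 12 markers of fat tissue, which also makes these genes, 1 rose and none fell, with a median of -0.12, and the part of fat tissue was not tested. The number called was 2 without ovalbumin lung 1, 2 without resiquimod lung 2 and 3 without ovalbumin lung 3.

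Stress and cycle genes complete the lists. Of 16 glucocorticoid-responsive genes 8 rose and none fell. Ddit4, an inhibitor of mTORC1, read 7.73, 7.47 and 8.56 in resiquimod lungs, against 6.55, 7.05 and 5.90 in ovalbumin lungs (log2 1.42 ± 0.28, adjusted p = 0.00451). Fkbp5, a chaperone of the glucocorticoid receptor, read 8.51, 8.39 and 9.31 in resiquimod lungs, against 8.07, 7.90 and 7.62 in ovalbumin lungs, a call lost without ovalbumin lung 3 (0.75, adjusted p = 0.0605). Resiquimod lung 3, the one with liver transcripts, was highest for both and for the transcription factor Klf15, whose call was lost without that lung or ovalbumin lung 1. Metallothionein Mt2 rose by 0.90 with resiquimod lung 2 highest. The list had 3 calls when arrays with liver or stomach transcripts were left out and 5 without resiquimod lung 3, ovalbumin lung 1 or ovalbumin lung 3, and the part of liver tissue was not tested. Of 16 clock genes 4 fell and 1 rose. Dbp, an output factor of the clock, read 9.04, 8.73 and 8.44 in resiquimod lungs, against 9.87, 9.83 and 9.47 in ovalbumin lungs, and Bhlhe40 fell by 0.97. Whether the lungs were taken at the same hour is not given in the sources used here. Of 18 protein folding genes 5 fell, led by the chaperone Hspa5 (-0.55 ± 0.08), and 1, the stress factor Ddit3, rose by 0.39. Of 39 cell cycle genes 2 rose and 2 fell, near the 4.38% and 5.39% of all genes. Mki67, present in cycling cells, rose by 0.68 ± 0.13, and the replication factors Uhrf1 and Mcm3 fell by 0.54 and 0.36, calls that ended without ovalbumin lung 1 or 3 or resiquimod lung 3. Of 14 arginine metabolism genes 2 rose, the arginase Arg2 by 0.96 ± 0.19 and the endothelial synthase Nos3 by 0.42 ± 0.12 (adjusted p = 0.0454, lost without any of the 6 arrays other than ovalbumin lung 1), and 2 fell, with the transporter Slc7a2 at -0.59.

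**Figure D4:**
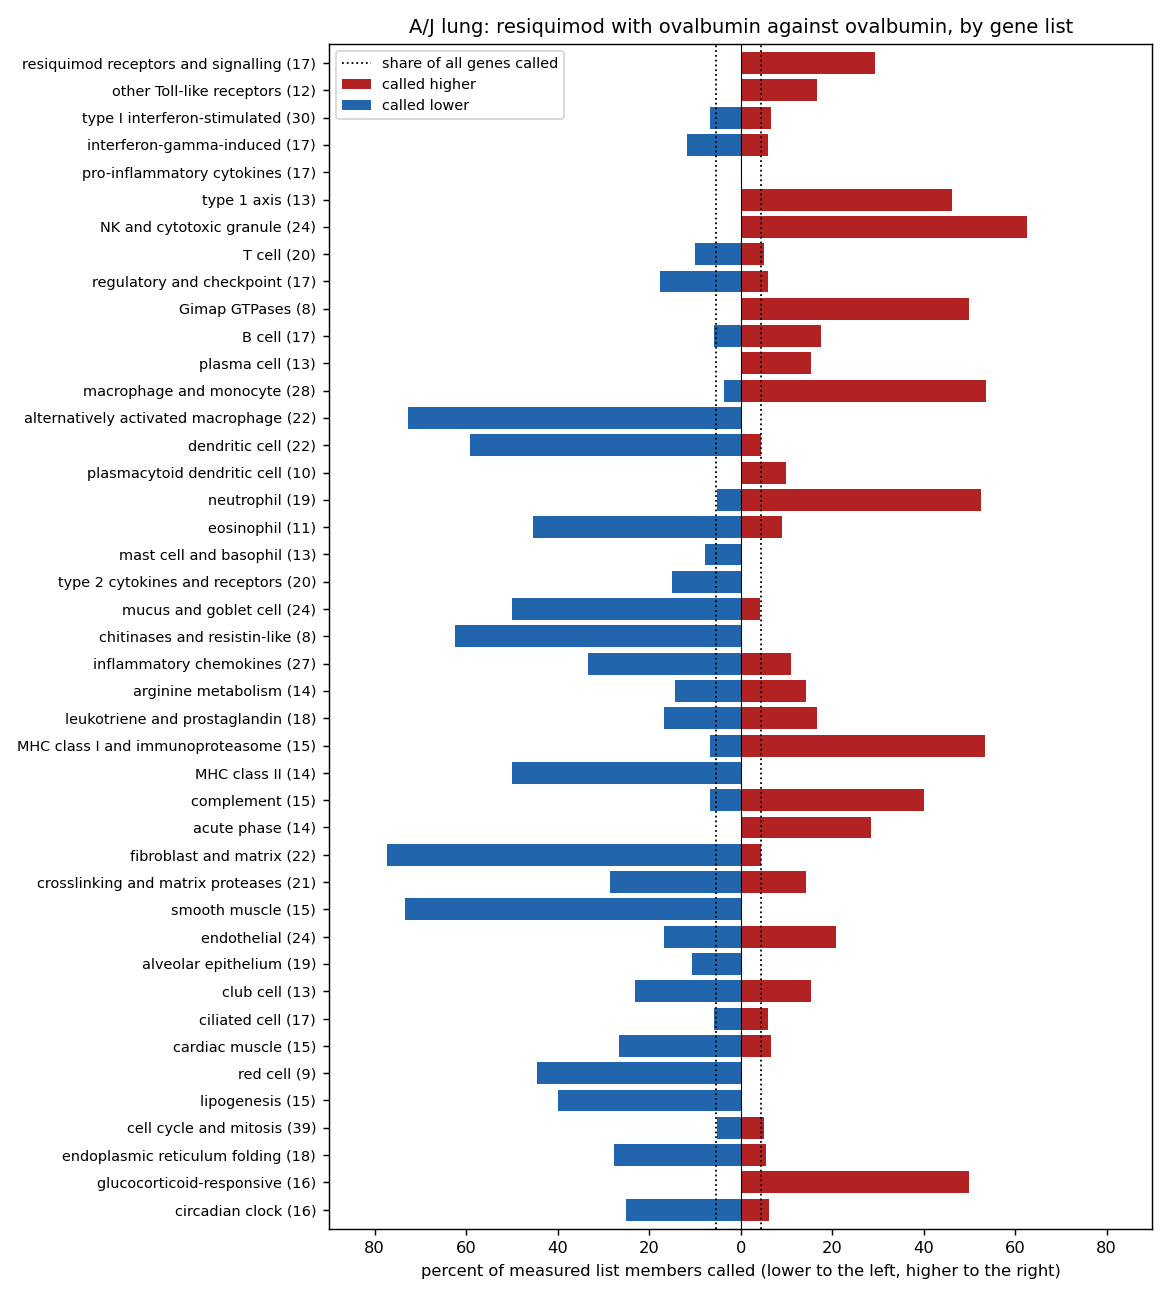
Share of the measured members of each gene list (number in brackets) that were called higher, to the right, or lower, to the left, in resiquimod lungs against ovalbumin lungs of A/J mice; dotted lines give the shares of all 18193 genes, 4.38% and 5.39%. The NK and cytotoxic granule list reaches furthest to the right and the fibroblast and matrix list furthest to the left. Lists were chosen with earlier results of these data known.

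Set against PBS lungs, the genes that fell were of 3 kinds. This second comparison uses the same resiquimod arrays, so its values are given beside the first and not as further evidence, and 1066 genes were called higher (5.86%) and 959 lower (5.27%) in it. Some genes that fell were not told apart from PBS: Chil4 differed by 0.47 (adjusted p = 0.580), Rnase2a by 0.25 (0.790), Ccl17 by 0.20 (0.699) and Il33 by -0.17 (0.672). Others stayed higher than in PBS lungs, with Clca1 at 3.43, Retnla at 2.38, Chil3 at 1.52, Slc26a4 at 1.40 and Ccl11 at 0.99 (adjusted p between 1.12e-08 and 0.00910). Others lay lower than in PBS lungs, with Alas2 at -3.45, Cd209a at -2.65, Rsad2 at -2.09, Scd1 at -1.61, Mgl2 at -1.55 and Col3a1 at -1.22. By list, 11 mucus genes were called higher than PBS and none lower, and 17 matrix genes lower and none higher. Smooth muscle had 4 lower, and the alternatively activated macrophage list 4 higher and 4 lower. The NK and cytotoxic granule list had 17 higher, and the cell cycle list 28 higher and none lower.

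The same comparison in C57BL/6 lungs, which shares no array with A/J, called 1055 genes higher (5.80%) and 836 lower (4.60%). Genes called higher in both strains numbered 343, which is 43.1% of the A/J list and 32.5% of the C57BL/6 list, and genes called lower in both numbered 392 (40.0% and 46.9%). Of the A/J rises 2 were called in the opposite direction in C57BL/6, and of the A/J falls 10. Gzma changed by 4.22 ± 0.13 and Chil4 by -4.72 ± 0.40 in C57BL/6, and neither was called in the interaction test between strains (adjusted p = 0.424 and 0.674). That test called 378 probe sets (0.839%) and 225 genes (1.24%), 65 with a change more positive in A/J (0.357%) and 160 more negative (0.879%), and 116 of the 1777 genes called in A/J were among them. The count of probe sets rests on single arrays: it lay between 138 and 636 when 1 array was left out, at 636 without A/J resiquimod lung 1, and at 4 without all arrays that carried another tissue.

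Several named genes changed in A/J and were not called in C57BL/6, with a called strain difference. Lox changed by 1.71 ± 0.15 in A/J and -0.20 ± 0.15 in C57BL/6, a difference of 1.91 ± 0.22 (adjusted p = 4.11e-04). Galnt15, a mucin-type glycosyltransferase, changed by 1.83 ± 0.13 in A/J and 0.04 ± 0.13 in C57BL/6 (adjusted p of the difference 1.43e-04), and A2ml1, a protease inhibitor of the macroglobulin family, by 1.34 ± 0.21 and -0.72 ± 0.21 (0.00498). In A/J all 3 were higher in every resiquimod lung than in any ovalbumin or PBS lung. Itln1 changed by -2.85 ± 0.20 in A/J and -0.44 ± 0.20 in C57BL/6 (7.36e-04), and the gut peptide gene Guca2a by -2.03 ± 0.15 and 0.03 ± 0.15 (1.45e-04). Fcgr2b and Fcer2a, an IgG and an IgE receptor, changed by -1.36 and -1.37 in A/J, against -0.17 and -0.14 in C57BL/6. Siglecf changed by -0.78 in A/J and 0.71 in C57BL/6, called in opposite directions.

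The largest strain differences among the named genes were in NK receptors. Klra7, of the Ly49 receptor family, read 2.58, 2.64 and 2.74 in A/J resiquimod lungs, against 2.34, 2.68 and 2.60 in A/J ovalbumin lungs. Klra8, of the same family, read 2.63, 2.45 and 2.66 in A/J resiquimod lungs, against 2.61, 2.55 and 2.29 in A/J ovalbumin lungs. All 12 of these values lay below the 25th percentile, where a change is hard to read. Whether the probe sets read these 2 genes in A/J was not tested. In C57BL/6 they rose by 4.42 ± 0.10 and 4.29 ± 0.13. Klre1, another NK receptor, rose in both, by 0.80 ± 0.14 in A/J and 2.51 ± 0.14 in C57BL/6 (adjusted p of the difference 4.11e-04), whereas Ncr1 and Klrd1 were not called in that test (adjusted p = 0.676 and 0.949). Other lists also had unlike counts. In the cell cycle list 2 members were higher and 2 lower in A/J, against 31 higher and none lower in C57BL/6. Of its 39 members 10 had a called strain difference. Set against PBS lungs, 28 members were called higher in A/J resiquimod lungs and none lower. In the glucocorticoid list 8 rose in A/J, against 1 that rose and 1 that fell in C57BL/6, and 1 member, Klf15, had a called strain difference. In the class II list 7 fell in A/J while 4 rose in C57BL/6, and no member had a called strain difference.

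**Figure D5:**
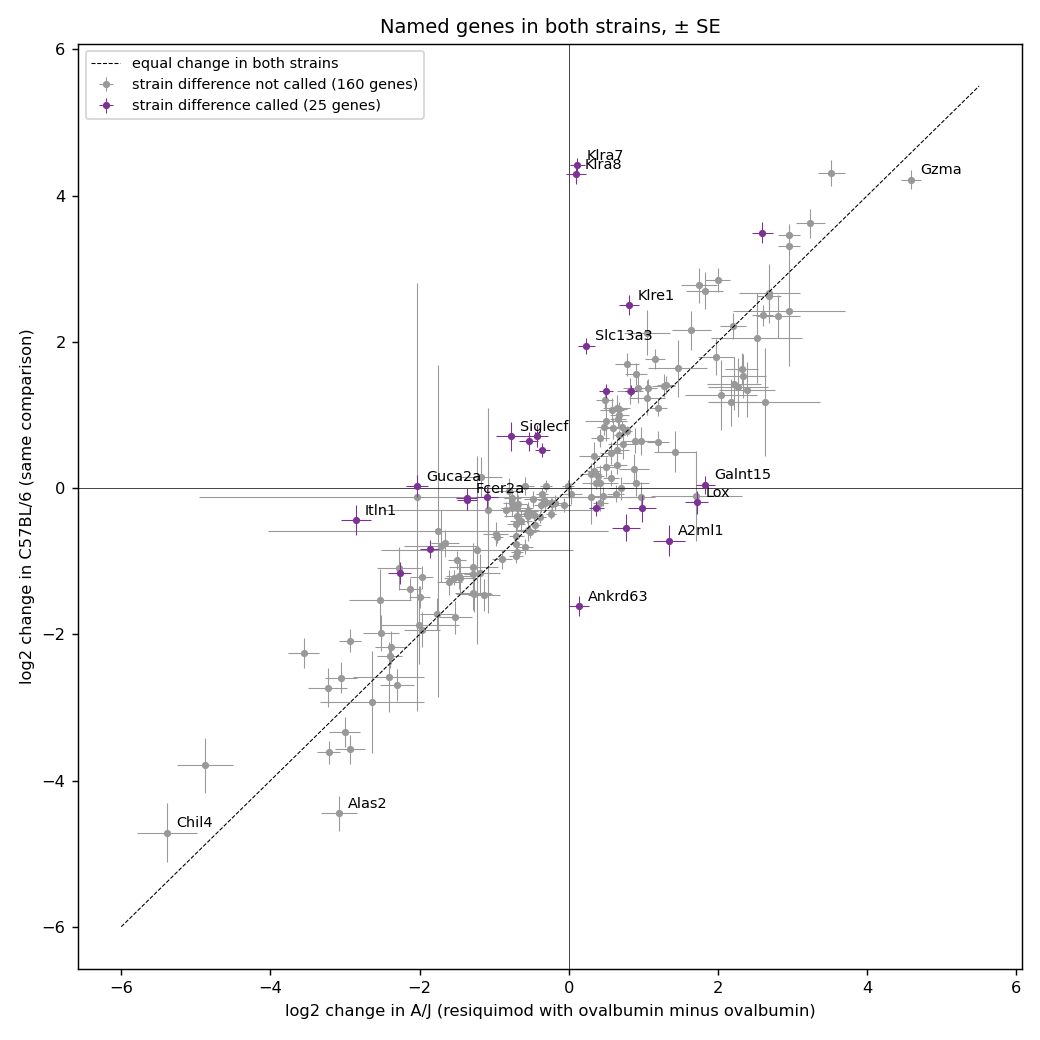
Log2 change of the 185 named genes (resiquimod with ovalbumin minus ovalbumin) in A/J on the horizontal axis and in C57BL/6 on the vertical axis, with SE bars; the dashed line marks equal change and purple genes have a called strain difference (25 genes). Klra7 and Klra8 lie near 0 in A/J and above 4 in C57BL/6, and Lox and Galnt15 lie to the right at about 0 in C57BL/6.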

How the data were processed

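Total RNA from homogenized whole lungs was biotin-labelled, per the labels' protocols. The deposited table holds log2 expression values that the authors made with RMA and the affy package, per the submitters' processing notes (version not given in the sources used here); RMA corrects background, normalizes quantiles between arrays and so hides global shifts, and summarises probes into probe sets. After 64 control probe sets, 45037 of 45101 remained, 34945 of them annotated to 1 gene, 932 to several and 9160 to none. The brightest probe set stands for each of 18193 genes.

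Values of 18 arrays were fitted as 6 group means with limma 3.58.1 in R 4.3.3 (lmFit, eBayes, 12 residual degrees of freedom, prior 4.30), two-sided, Benjamini-Hochberg over 45037 probe sets, called under 0.05. The procedure was tested on simulated data. Single values per array were compared by exact two-sided permutation. Named genes (185) are the 20 largest called rises and 20 largest called falls whose groups do not overlap, up to 4 called members per list (or 2 given as values), 12 fixed genes, and the 6 largest called strain differences each way. The 50 lists hold 881 genes, 801 measured. Members and lists were chosen with earlier results of these data known. Deviations of same-numbered arrays correlated at 0.263, 0.373 and -0.257, so the numbers were not taken to pair mice. Alternatives changed the arrays, the normalization, the filter, the weights and the choice of probe set. Sequences are those of RefSeq.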

Additional observations from a re-analysis of the deposited data

Results flagged for a closer look

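The results below differed between strains by the interaction test (A/J change minus C57BL/6 change, log2, limma, Benjamini-Hochberg adjusted over 45037 probe sets), among the 185 named genes. No value was tested for a single array standing apart, since each group has 3 arrays.

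The change was more positive in A/J for A2ml1 (2.06), the crosslinking enzyme Lox (1.91), Galnt15 (1.79), Ankrd63 (1.76), the transcription factor Klf15 (1.31), the cell cycle regulator Rgcc (1.26) and the copper carrier Cp (0.64). Ankrd63 was not called in A/J (0.14 ± 0.14) and fell by 1.62 in C57BL/6. The A/J call of Klf15 ended without resiquimod lung 3 (0.49, adjusted p = 0.0523) or ovalbumin lung 1 (0.68, adjusted p = 0.0739).

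The change was more negative in A/J for the NK receptors Klra7 (-4.30), Klra8 (-4.20) and Klre1 (-1.70), for Itln1 (-2.41), Guca2a (-2.06) and the dicarboxylate transporter Slc13a3 (-1.71). Among myeloid and B cell receptors the change was more negative for Fcgr4 (-0.90), Fcgr2b (-1.20) and Fcer2a (-1.23). Among eosinophil genes it was so for Siglecf (-1.49) and Prg2 (-0.98). Lymphocyte genes were Cd8b1 (-1.14) and Il18rap (-0.50), and cell cycle genes Uhrf1 (-1.18) and Mcm3 (-0.88). The others were Tfpi2 (-1.11), Col6a3, a collagen of microfibrils (-1.03), and Ido1 (-0.83).

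Arrays marked for another tissue were not spread evenly. Liver transcripts marked 2 arrays and stomach transcripts 1, all of them among the 6 A/J arrays compared and none in C57BL/6. Squamous transcripts marked 3 of the 6 A/J arrays compared and 2 of the 6 C57BL/6 arrays. Squamous and skeletal muscle transcripts marked replicate 1 of every group, PBS included, except C57BL/6 resiquimod lungs, where they marked replicate 2. What the replicate numbers stand for was not tested. Without all marked arrays 4 probe sets had a called strain difference, with 1 array left in each A/J group.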

How the results depend on the processing

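Of 164 named genes called in the A/J comparison, 118 kept their call when any of the 6 arrays was left out, and 60 kept it under all 30 alternatives. All 164 kept their direction except Tap1 (log2 change 0.64), which turned to -0.044 (adjusted p = 0.802) with the median of its probe sets. Of the 40 largest changes 36 kept their call without any of the 6 arrays, 35 without all arrays that carried another tissue, an alternative chosen after seeing the data, and 31 without arrays that carried squamous transcripts.

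Counts of probe sets called moved with the arrays in the fit. Over the 18 leave-one-out fits 976 to 1504 probe sets were called higher, 1184 to 1671 lower and 2212 to 3174 in all, with 1275 to 1755 genes and 138 to 636 strain differences. With the 6 arrays alone there were 400 higher, 692 lower and 1092 in all (647 genes), and with the 9 A/J arrays 844, 1090 and 1934 (1104 genes). Without arrays with liver or stomach transcripts there were 876 higher, 881 lower and 1757 in all (1009 genes, 135 strain differences). Without arrays with squamous transcripts there were 230, 344 and 574 (342 genes, 6 strain differences). Without all arrays with other tissues there were 332, 242 and 574 (373 genes, 4 strain differences), with 1 array in each A/J group, which is assumed to vary like the other groups. Fewer arrays enter each of these fits. Only 1 A/J resiquimod lung is left without liver or stomach arrays, and only 1 A/J ovalbumin lung without squamous arrays. An intensity trend with a robust prior gave 730 strain differences. The count of strain differences was more than 1.5 times lower without A/J ovalbumin lung 1 (163) or 3 (151), A/J resiquimod lung 3 (154), or any C57BL/6 ovalbumin or resiquimod lung (138 to 250). The replicate block gave 1507 higher and 1669 lower and 385 strain differences, and among named genes it ended the calls of Igkv6-20, Cd3e, Nos3 and Ccnb2; since the numbers were not taken to pair mice, it is given only here. Filters, array weights and repeated normalization kept the counts within 1.5 times.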

Other observations

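The resiquimod lung with the highest value differed from gene to gene, also within a list. Lung 2 was highest for Tnf, Ifng, S100a8 and Stfa2l1, though lowest for Lcn2 of the neutrophil list (11.28, 11.03 and 11.12 in lungs 1, 2 and 3): Tnf read 5.45, 6.54 and 5.17 in lungs 1, 2 and 3, Ifng 3.14, 4.18 and 3.08, S100a8 10.51, 11.58 and 10.15 and Stfa2l1 5.59, 6.65 and 5.10. The neutrophil-attracting chemokine genes Cxcl2 and Cxcl3, chosen after their values were seen, also read highest there, with 5.20, 8.30 and 4.22 for Cxcl2 against 3.65, 4.42 and 4.22 in ovalbumin lungs, and 6.88, 9.25 and 6.83 for Cxcl3 against 5.33, 6.22 and 5.63 in ovalbumin lungs. Lung 1 was highest for Mzb1 at 10.78 and Iglv1 at 11.70. Lung 3 was highest for Fkbp5 at 9.31 and Ddit4 at 8.56, but not for Mt2 (9.22, 9.85 and 9.74) of the same list, and alone held the liver acute phase gene Saa1 (also chosen after its values were seen) at 10.14, against 3.89 and 3.81 in the other resiquimod lungs and 4.15, 3.74 and 3.57 in ovalbumin lungs. Gzma read 10.19, 10.22 and 9.92 in the same lungs.

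Apod and Fam107a, in none of the lists, were among the 20 largest rises. Apod, a lipocalin that carries lipids, read 9.70, 9.24 and 9.45 in resiquimod lungs, against 7.54, 6.97 and 7.28 in ovalbumin lungs (4.60-fold, adjusted p = 7.88e-07), although 1 of its 2 probe sets was called. Fam107a, a stress-inducible actin-binding protein, read 8.31, 8.42 and 9.64 in resiquimod lungs, against 6.38, 7.05 and 6.40 in ovalbumin lungs (4.52-fold, adjusted p = 3.50e-04), with all 3 of its probe sets called. In C57BL/6 the changes were 2.22 ± 0.18 and 1.17 ± 0.32.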
